A study of Mus musculus with 9 samples.

Results

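Immunoglobulin constant genes and Jchain were followed through single-cell transcript counts of 9 mouse livers. The 8 genes are Igkc, Iglc1, Iglc2, Iglc3, Ighm, Ighd, Igha and Jchain, out of 26388 features listed over the 9 livers. They were chosen from earlier results of these data, by their counts per liver and per barcode, so their own levels are given as a description with no test. The livers came from male C57BL/6 mice aged 8 weeks that had received AAVrh.10Null (mice 2, 5 and 8), AAVrh.10mCherry (mice 3, 6 and 9) or PBS (mice 1, 4 and 7) into a vein, with 3 mice per group and 1 library per mouse. AAVrh.10 is a serotype of adeno-associated virus, a carrier for gene transfer to liver, and mCherry is a red fluorescent protein. Cells were captured by Drop-seq, in which beads label each transcript with a cell barcode and a unique molecular identifier (UMI), so that 1 UMI stands for 1 captured molecule. No source used here gave the vector dose or the time after injection.

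Antibodies are built from heavy chains and light chains, each with a variable part that binds antigen and a constant part that sets the class. Mature naive B cells carry IgM and IgD on their surface, from the constant genes Ighm and Ighd, whereas plasma cells secrete antibody in bulk, and those of mucosal tissues make mostly IgA from Igha. The light chain is kappa, from Igkc, or lambda, from the Iglc genes, and in mice most B cells use kappa. Jchain encodes the joining chain that links IgA or IgM units into polymers. Polymeric IgA is carried across epithelia by the receptor encoded by Pigr.

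On the mouse assembly GRCm38, the heavy chain genes lie on the minus strand at chr12:113254830-113260236 (Igha), chr12:113406604-113416324 (Ighd) and chr12:113418558-113422730 (Ighm). Igkc lies at chr6:70726435-70726966 on the plus strand, and Jchain at chr5:88519809-88527891 on the minus strand. The lambda genes lie on the minus strand at chr16:19061618-19062071 (Iglc1), chr16:19065230-19065681 (Iglc3) and chr16:19198396-19200351 (Iglc2). The last 90 coding bases of the lambda genes are shown because they let a reader see how alike the 3 genes are, which bears on their counts. They are from the GENCODE M21 transcripts, 5′ to 3′, and capitals mark bases that differ from Iglc2.
Iglc1 (chr16:19061755-19061844, minus strand): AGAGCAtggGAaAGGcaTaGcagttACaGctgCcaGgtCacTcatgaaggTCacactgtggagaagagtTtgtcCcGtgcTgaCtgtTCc
Iglc2 (chr16:19198539-19198628, minus strand): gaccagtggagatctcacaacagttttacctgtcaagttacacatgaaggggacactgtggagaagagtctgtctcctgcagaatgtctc
Iglc3 (chr16:19065368-19065457, minus strand): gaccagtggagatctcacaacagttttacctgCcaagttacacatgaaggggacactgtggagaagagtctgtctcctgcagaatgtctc
Iglc3 differs from Iglc2 at 1 of these 90 bases, and Iglc1 differs from Iglc2 at 29. Over the coding sequence 303 of 314 aligned bases are the same in Iglc2 and Iglc3 (96.5%), against 234 of 313 (74.8%) in Iglc1 and Iglc2. Counts of Iglc2 and Iglc3 are therefore uncertain as separate genes.

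The libraries held 1083091 (PBS mouse 7) to 11220152 (PBS mouse 1) UMIs in 3600 to 7200 barcodes, 48000 barcodes in all. Mouse 7 stood apart, with a median of 264 UMIs per barcode and 3050 barcodes under 200 genes, where the other livers had medians of 725 to 1990. In AAVrh.10Null mice 2 and 8, 0.0972% and 0.278% of the barcodes ended in an undetermined base, against 4.83% in mouse 7 and 25.4% to 27.5% in the other 6 livers. Albumin transcripts (Alb), the hepatocyte marker of the labelled tissue, were at 33730 to 47240 UMIs per 1000000 UMIs of a liver (CPM). The mCherry transcript ranged over 1800 to 7980 CPM in AAVrh.10mCherry livers, and reached 22.7 CPM in AAVrh.10Null mouse 5 and 24.3 CPM in PBS mouse 1. Between libraries 91 barcode sequences were shared, 1 of them an Ig-rich barcode (defined below) of mouse 4.

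Immunoglobulin RNA was rare in every liver. The 8 genes gave 1257 of 53847111 UMIs, in 363 barcodes. Igkc was the most counted with 500 UMIs, followed by Ighm with 301, Iglc2 with 122, Ighd with 83, Igha with 74, Iglc3 with 70, Jchain with 56 and Iglc1 with 51. The 8 genes summed to 30.7, 10.9 and 22.3 CPM for AAVrh.10Null mice 2, 5 and 8, to 13.5, 10.9 and 7.46 CPM for AAVrh.10mCherry mice 3, 6 and 9, and to 14.1, 54.2 and 222 CPM for PBS mice 1, 4 and 7. The AAVrh.10mCherry range lay just below the PBS range, and the AAVrh.10Null range overlapped both. The nearest livers, AAVrh.10mCherry mouse 3 and PBS mouse 1, rested on 80 and 158 UMIs of the 8 genes. This gap was not tested, and 2.29% of the genes tested further on lay wholly below in these 2 groups.

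**Figure D1:**
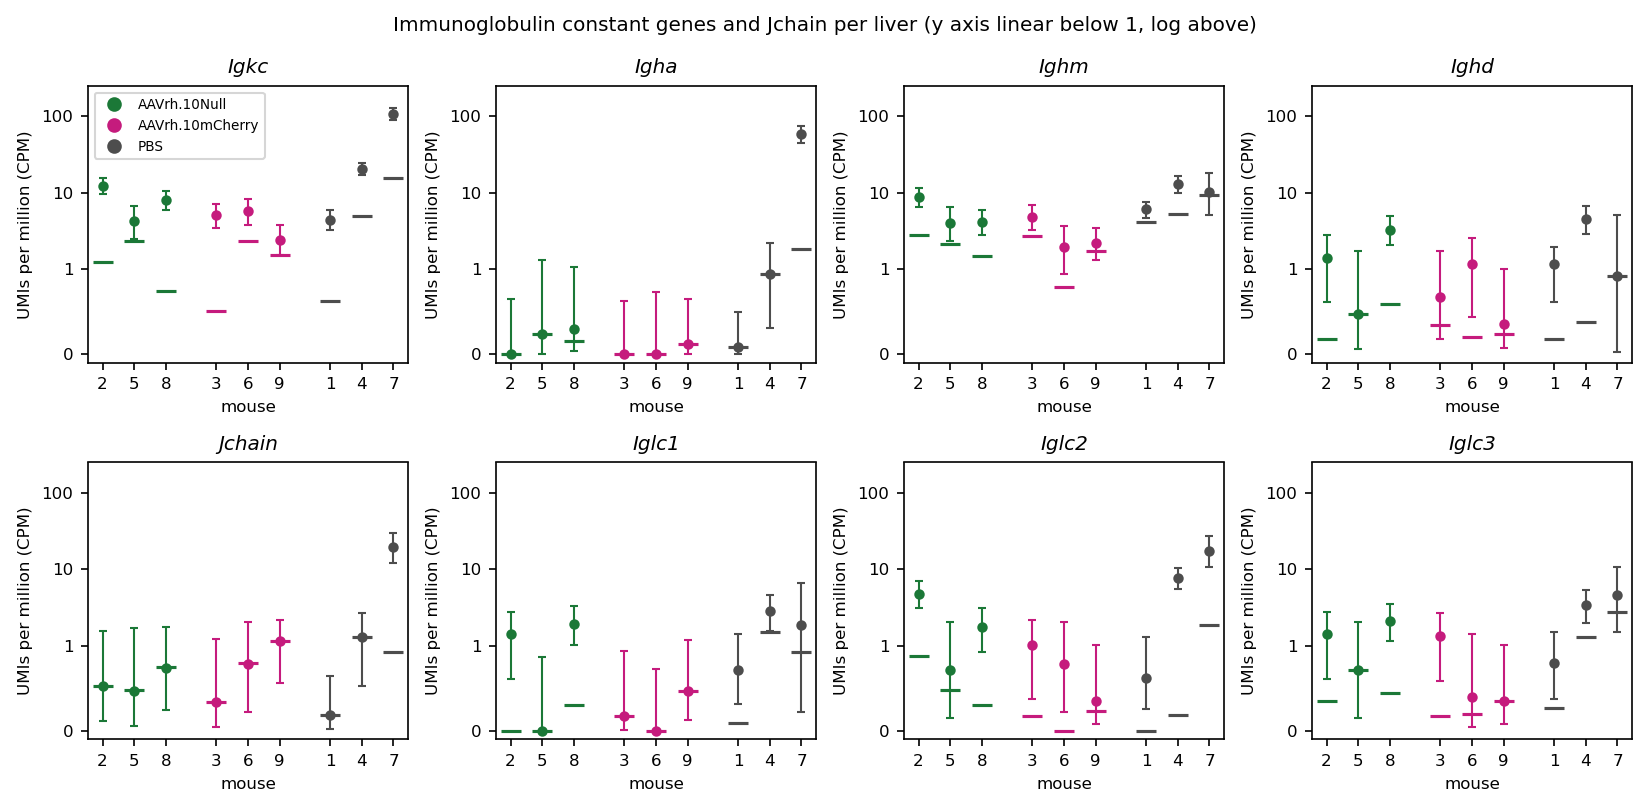
Level of each gene in each liver, in CPM (y axis linear below 1 and logarithmic above), by mouse. Points are all barcodes with exact 95% Poisson intervals, and short bars are the level without Ig-rich barcodes; Igha and Jchain stand out in PBS mouse 7 only, at 59.1 and 19.4 CPM.

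Among the light chains, Igkc gave 70, 18 and 54 UMIs in AAVrh.10Null mice 2, 5 and 8, 30, 29 and 21 UMIs in AAVrh.10mCherry mice 3, 6 and 9, and 50, 110 and 118 UMIs in PBS mice 1, 4 and 7. These were 12.3, 4.25 and 8.02 CPM in the AAVrh.10Null livers, 5.06, 5.73 and 2.45 CPM in the AAVrh.10mCherry livers, and 4.46, 20.6 and 109 CPM in the PBS livers. The PBS livers therefore held both the highest Igkc level and one within the AAVrh.10mCherry range, and all 3 groups overlapped. Iglc2 was at 4.76, 0.709 and 1.78 CPM in the AAVrh.10Null livers, 1.01, 0.790 and 0.349 CPM in the AAVrh.10mCherry livers, and 0.624, 7.69 and 17.5 CPM in PBS mice 1, 4 and 7. Iglc3 ran from 0.709 to 2.08 CPM in the AAVrh.10Null livers, 0.349 to 1.35 CPM in the AAVrh.10mCherry livers and 0.802 to 4.62 CPM in the PBS livers. The spread of both followed Igkc, with mice 4 and 7 highest. Iglc1 was not detected in AAVrh.10Null mouse 5 or AAVrh.10mCherry mouse 6, where 0 UMIs allow a level of up to 0.709 and 0.593 CPM by a floor of 3 UMIs. In the other livers Iglc1 was at 1.41 and 1.93 CPM (AAVrh.10Null mice 2 and 8), 0.169 and 0.466 CPM (AAVrh.10mCherry mice 3 and 9), and 0.713, 2.81 and 1.85 CPM (PBS mice 1, 4 and 7).

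Ighm, the constant gene of IgM, gave 50, 17 and 28 UMIs in AAVrh.10Null mice 2, 5 and 8, 29, 10 and 19 UMIs in AAVrh.10mCherry mice 3, 6 and 9, and 68, 69 and 11 UMIs in PBS mice 1, 4 and 7. These were 8.82, 4.01 and 4.16 CPM in the AAVrh.10Null livers, 4.89, 1.98 and 2.21 CPM in the AAVrh.10mCherry livers, and 6.06, 12.9 and 10.2 CPM in the PBS livers. Ighm averaged 5.67 ± 2.73 CPM in AAVrh.10Null livers, 3.03 ± 1.62 CPM in AAVrh.10mCherry livers and 9.72 ± 3.46 CPM in PBS livers (SD, n = 3 each). The highest AAVrh.10mCherry level lay below the lowest PBS level. Of the 8 genes this held for Ighm and Iglc1 alone, and it held for 258 of the 11288 genes tested further on (2.29%); in the same contrast the test over all genes called 0%. None of the 8 genes lay wholly below in AAVrh.10Null against PBS livers (7.15% of all genes tested did) or in AAVrh.10mCherry against AAVrh.10Null livers (4.52% did). Since the 8 genes were chosen by their levels, nothing is read from these shares. Intervals of AAVrh.10mCherry mouse 3 (3.27 to 7.02 CPM) and PBS mouse 1 (4.71 to 7.68 CPM) overlapped for Ighm, so the gap between these livers was within counting error. The same held for Iglc1 in AAVrh.10mCherry mouse 9 (0.127 to 1.19 CPM) and PBS mouse 1 (0.308 to 1.41 CPM). These 2 livers had 4 and 8 UMIs of Iglc1, and 7 of the 8 in mouse 1 were in 1 barcode. Ighd, the constant gene of IgD, was at 1.41, 0.472 and 3.27 CPM in the AAVrh.10Null livers, 0.674, 1.19 and 0.349 CPM in the AAVrh.10mCherry livers, and 1.16, 4.50 and 0.923 CPM in the PBS livers. The 3 groups overlapped for Ighd.

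Igha gave 0, 1 and 2 UMIs in AAVrh.10Null mice 2, 5 and 8, 0, 0 and 1 UMIs in AAVrh.10mCherry mice 3, 6 and 9, and 1, 5 and 64 UMIs in PBS mice 1, 4 and 7. Jchain gave 3, 2 and 5 UMIs in the AAVrh.10Null livers, 2, 4 and 10 UMIs in the AAVrh.10mCherry livers, and 2, 7 and 21 UMIs in PBS mice 1, 4 and 7. For Igha the level of mouse 7 was 59.1 CPM (45.5 to 75.5), and the next highest was 0.938 CPM in mouse 4, also a PBS liver. For Jchain mouse 7 had 19.4 CPM (12.0 to 29.6) and mouse 4 had 1.31 CPM (0.528 to 2.71). No other liver passed 0.297 CPM of Igha or 1.17 CPM of Jchain. Both genes were thus high in 1 of the 9 livers, and in that liver they rested on a single barcode.

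That barcode of PBS mouse 7 held 62 of the 64 Igha UMIs and 20 of the 21 Jchain UMIs of its liver. It also held 93 of the 118 Igkc and 12 of the 19 Iglc2 UMIs. The 8 genes made up 188 of its 819 UMIs (23.0%), which is 78.0% of all UMIs of these genes in the liver. Without it the liver had 1.85 CPM of Igha, 0.924 CPM of Jchain and 23.1 CPM of Igkc. Its summed level then was 49.0 CPM, between the 14.1 and 54.2 CPM of the other PBS livers.

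Genes of antibody assembly and of the secretory pathway were also counted in the barcode. Mzb1, which encodes a chaperone of antibody assembly in B cells and plasma cells, gave 12 UMIs there of 13 in the liver. Hsp90b1, the chaperone GRP94 of the endoplasmic reticulum, gave 17 UMIs, the protein disulphide isomerase Pdia4 7, calreticulin (Calr) 6, the translocon subunit Sec61b 5, the stress-associated Serp1 5 and the chaperone Hspa5 4. Of the plasma cell list of 18 genes it held 19 UMIs in 5 genes, and Xbp1, Sdc1, Prdm1 and Irf4 were at 0. No UMI came from the B cell list of 20 genes, nor from Ighm or Ighd. Alb was 0.855% of its UMIs, against 4.60% in the other barcodes of the liver. It had 420 genes, ranked 65th by UMIs among the 3600 barcodes of the liver, and differed from its nearest neighbour by 3 barcode bases.

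The barcode also held 5 of the 6 UMIs of Igkv6-32 in its liver, the only variable segment found in it. Its last 120 coding bases are shown because they belong to the kappa segment counted in the barcode richest in antibody RNA. The sequence is the reference of GENCODE M21, not one read from the cell, and capitals mark the last in-frame cysteine codon.
Igkv6-32 (chr6:70074024-70074143, minus strand): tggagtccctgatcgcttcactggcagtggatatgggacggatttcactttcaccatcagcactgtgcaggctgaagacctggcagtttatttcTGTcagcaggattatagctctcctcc
Every other barcode with Igha or Jchain held 1 UMI of them. There were 48 of these, 3, 3 and 7 in AAVrh.10Null mice 2, 5 and 8, 2, 4 and 11 in AAVrh.10mCherry mice 3, 6 and 9, and 3, 12 and 3 in PBS mice 1, 4 and 7. The barcode of mouse 7 was the only 1 of 48000 with at least 2 UMIs of Igha and Jchain together. Outside it, 1 Igha UMI and no Jchain UMI fell in a barcode with at least 5 UMIs of the 8 genes.

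Barcodes with at least 5 UMIs of the 8 genes, called Ig-rich here, numbered 74 and held 880 of the 1257 UMIs (70.0%). AAVrh.10Null mice 2, 5 and 8 had 14, 2 and 14 of them, AAVrh.10mCherry mice 3, 6 and 9 had 5, 3 and 2, and PBS mice 1, 4 and 7 had 8, 22 and 4. As shares of all barcodes these were 0.194%, 0.05% and 0.194% in the AAVrh.10Null livers, 0.125%, 0.0536% and 0.0312% in the AAVrh.10mCherry livers, and 0.154%, 0.458% and 0.111% in the PBS livers. Each group held livers above and below a liver of another group. The minimum was fixed and not scaled to depth, which was lowest in mouse 7 (median of 264 UMIs per barcode). At the threshold 7 barcodes had exactly 5 UMIs and 15 had 4. With a minimum of 10 UMIs the counts were 5, 1 and 3 (AAVrh.10Null), 4, 3 and 0 (AAVrh.10mCherry) and 6, 11 and 1 (PBS).

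**Figure D2:**
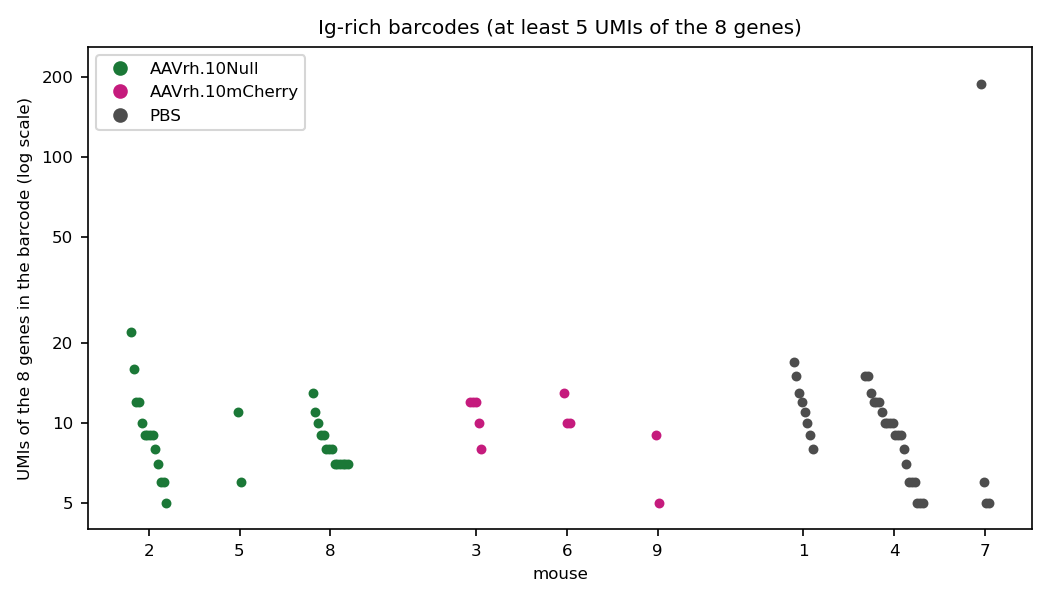
UMIs of the 8 genes in each Ig-rich barcode (log scale), by mouse; each point is 1 barcode. The barcode of PBS mouse 7 with 188 UMIs stands above the other 73, which hold 5 to 22.

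Leaving out the barcode of mouse 7, most of the other 73 Ig-rich barcodes held B cell RNA. They had 5 to 22 UMIs of the 8 genes (median 9) among 292 to 6383 UMIs in all (median 1083), a share of at most 1.88%. Ighm was seen in 57 of them, Ighd in 38 and either in 68. At least 1 UMI of the B cell list was found in 71 and at least 2 in 67, while no UMI of the T/NK list was found in any. Cd79b, a signalling chain of the B cell receptor, was seen in 36, and Ms4a1, which encodes CD20, in 35. Cd74, the invariant chain of antigen presentation, was seen in 65 but is not on the B cell list. In every liver most Cd74 UMIs lay outside Ig-rich barcodes. The share inside ran from 4 of 140 UMIs (AAVrh.10mCherry mouse 9) to 27 of 92 (AAVrh.10Null mouse 8). Cd79a, the partner of Cd79b, was seen in 6 and Mzb1 in 7.

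Per 1000000 UMIs of the barcodes concerned, the B cell list summed to 1945 to 5604 in the Ig-rich barcodes of a liver, against 2.68 to 25.0 in its other barcodes. This is a description, since B cell genes and the 8 genes come from the same cells. All 73 also held Alb, at 1.16% to 9.16% of their UMIs (median 2.93%), so that hepatocyte RNA was present in each. An Ig-rich barcode of AAVrh.10Null mouse 5 also had 21 UMIs of the Kupffer cell list, and one of AAVrh.10mCherry mouse 9 had 9 UMIs of the endothelial list. One of PBS mouse 1 had 18 UMIs of the red cell list. Whether these are doublets was not tested.

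**Figure D3:**
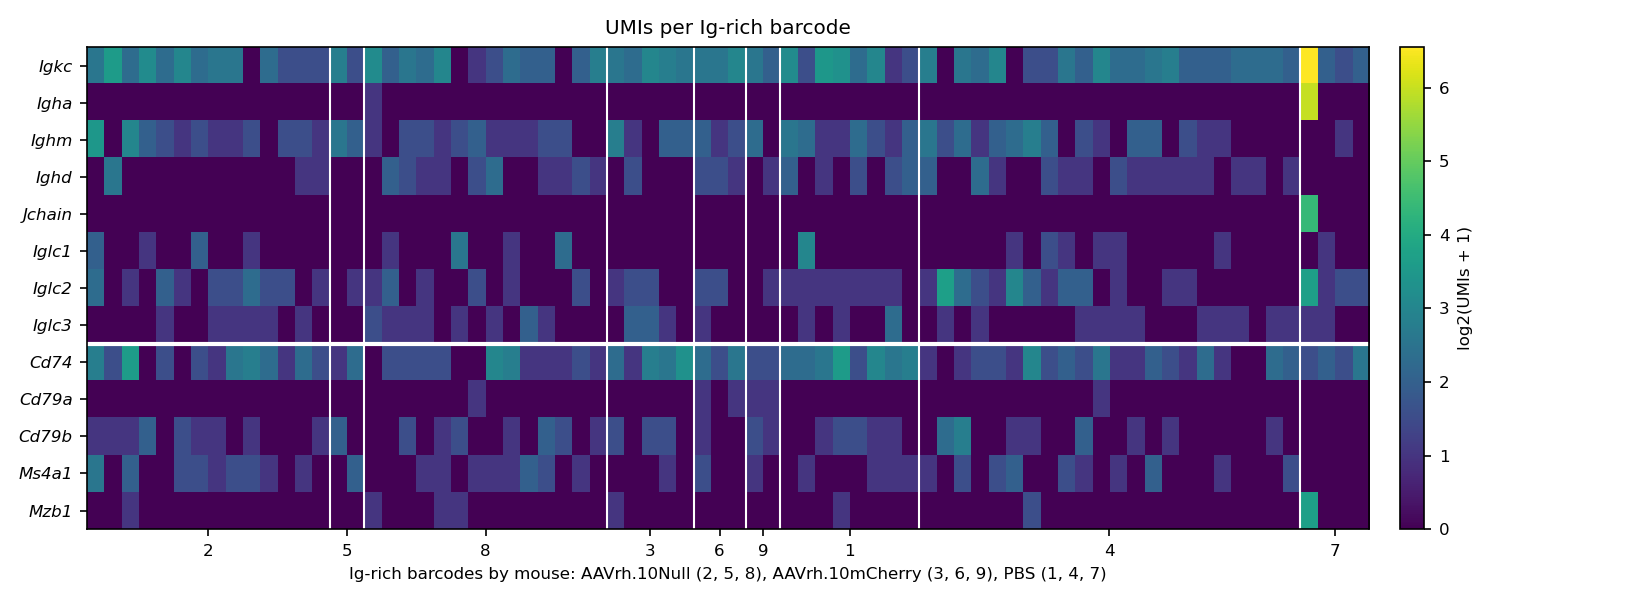
UMIs of the 8 genes (above the line) and of Cd74, Cd79a, Cd79b, Ms4a1 and Mzb1 (below it) in the 74 Ig-rich barcodes. Values are log2(UMIs + 1), 1 column per barcode, grouped by mouse. Igha and Jchain fill the first barcode of PBS mouse 7, whereas Ighm appears in Ig-rich barcodes of all 9 livers and Ighd in those of 7.

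Barcodes with at least 2 UMIs of Ighm and Ighd together numbered 65, of which 51 were Ig-rich and none was the Igha barcode of mouse 7. They numbered 13, 4 and 12 in AAVrh.10Null mice 2, 5 and 8, 4, 3 and 1 in AAVrh.10mCherry mice 3, 6 and 9, and 10, 18 and 0 in PBS mice 1, 4 and 7. The AAVrh.10mCherry livers had 4 or fewer each, and the PBS livers lay on both sides of that range. The PBS count below it is that of mouse 7, the shallowest library, with a median of 264 UMIs per barcode. That liver had 10.2 CPM of Ighm, in 11 barcodes with 1 UMI each. Of its 9 barcodes with 2 to 4 UMIs of the 8 genes, 77.8% held a B cell list UMI. The part of depth in these counts was not tested. Both heavy chain genes were detected together in 27 of the 74 Ig-rich barcodes. For Ighd the 5 genes with the most similar set of barcodes, by the Jaccard index over 48000 barcodes, were Ms4a1 (0.220), the low-affinity IgE receptor Fcer2a (0.203), the IgM receptor Fcmr (0.176), Cd79b (0.168) and H2-DMb2 (0.160). Of the 53 barcodes with Ighd, 20 held Ms4a1. For Jchain the same measure gave at most 0.0400, with 2 or 3 shared barcodes per gene (Gm44658, Hap1, Mirlet7b, Epcam and 6330408A02Rik), so no gene was found to share its barcodes beyond a few.

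In each liver with at least 5 Ig-rich barcodes, genes with at least 10 UMIs in the liver were ranked by the share of their own UMIs that fell in those barcodes. In AAVrh.10Null mouse 2, Cd79b had 12 of 14 UMIs there and Ms4a1 19 of 24. In AAVrh.10Null mouse 8, Ms4a1 had 11 of 13 and Cd79b 12 of 16. In PBS mouse 4, Fcmr had 9 of 10, Fcer2a 9 of 12, the inhibitory receptor Cd22 7 of 10 and the adaptor Bank1 15 of 23. In PBS mouse 1, Cd79b had 7 of 10 and Bank1 6 of 12. In AAVrh.10mCherry mouse 3 the first genes at that minimum were Fam65b (3 of 14) and March1 (3 of 15). The B cell list as a whole had 32 of its 57 UMIs (56.1%) in Ig-rich barcodes of that liver. Cd79b was at 6 of 7, Fcer2a at 7 of 9 and the BAFF receptor gene Tnfrsf13c at 4 of 4. Bank1, the most counted gene of the list there, was at 3 of 17, and Cd37 was at 0 of 2.

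Light chains were mixed within barcodes. Igkc was found in 69 of the 74 Ig-rich barcodes and a lambda gene in 64, both in 59. Lambda UMIs outnumbered kappa UMIs in 14, and 5 held lambda alone. Among these 5, the most lambda UMIs were in a barcode of PBS mouse 4 with 12 Iglc2, 1 Iglc3 and no Igkc UMIs. The barcode of mouse 7 held 93 Igkc, 12 Iglc2 and 1 Iglc3 UMIs. Variable segments were seen in 22 of the other 73 barcodes, mostly as 1 UMI. Igkv6-32 was the only segment to reach 3 UMIs in any Ig-rich barcode. Among the 22, 1 barcode of AAVrh.10Null mouse 5 and 2 of AAVrh.10Null mouse 8 held Igkv3-12 alone, at 1 UMI each. In these livers Igkv3-12 was counted mostly outside Ig-rich barcodes. Ighv1-53 and Igkv17-121 occurred together in 2 Ig-rich barcodes of PBS mouse 1, with 1 UMI each, which were their only UMIs in that liver.

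Jchain was counted only outside Ig-rich barcodes in every liver but PBS mouse 7, while Ighm was divided between the 2 kinds of barcode. Ig-rich barcodes held 35.7% of the Jchain and 48.5% of the Ighm UMIs, against 79.5% for Ighd, 85.1% for Igha, 87.7% for Iglc2, 66.7% for Iglc1 and 62.9% for Iglc3, and 400 of 500 for Igkc. The share of Ighm in Ig-rich barcodes was 68.0%, 47.1% and 64.3% in AAVrh.10Null mice 2, 5 and 8, 44.8%, 60.0% and 21.1% in AAVrh.10mCherry mice 3, 6 and 9, and 30.9%, 59.4% and 9.09% in PBS mice 1, 4 and 7. Livers of each group lay on both sides of an even split. Of the 242 barcodes with a single UMI of the 8 genes, 120 held Ighm and 35 Jchain. A B cell list UMI was found in 3.31% of these 242, in 72.3% of the 47 barcodes with 2 to 4 UMIs and in 0.397% of the 47637 barcodes with none.

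T and NK cell barcodes carried part of this Ighm. Barcodes with at least 3 UMIs of the T/NK list (10 genes, among them Cd3e, Trac and Nkg7) and under 5 UMIs of the 8 genes numbered 212. They held 18 Ighm UMIs in 15 barcodes of 7 livers, or 62.3 per 1000000 UMIs of these barcodes (exact 95% interval 36.9 to 98.4), and 0 UMIs of each of the other 7 genes. The 0 UMIs allow up to 12.8 for each by the same interval. Kupffer cell barcodes (223) held 2 Ighm UMIs, 6.71 on this scale (0.813 to 24.3), and endothelial barcodes (598) held 1, at 1.39 (0.0352 to 7.74). The other 46899 barcodes were at 2.55 for Ighm (2.14 to 3.03), at 1.91 for Igkc (1.55 to 2.32) and at 0.686 for Jchain. In Ig-rich barcodes the counts were 146 Ighm against 400 Igkc UMIs. Outside Ig-rich barcodes, the Ighm level was thus highest in T/NK barcodes, where no Igkc was counted; this was not tested over livers, and the intervals cover counting error only.

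**Figure D4:**
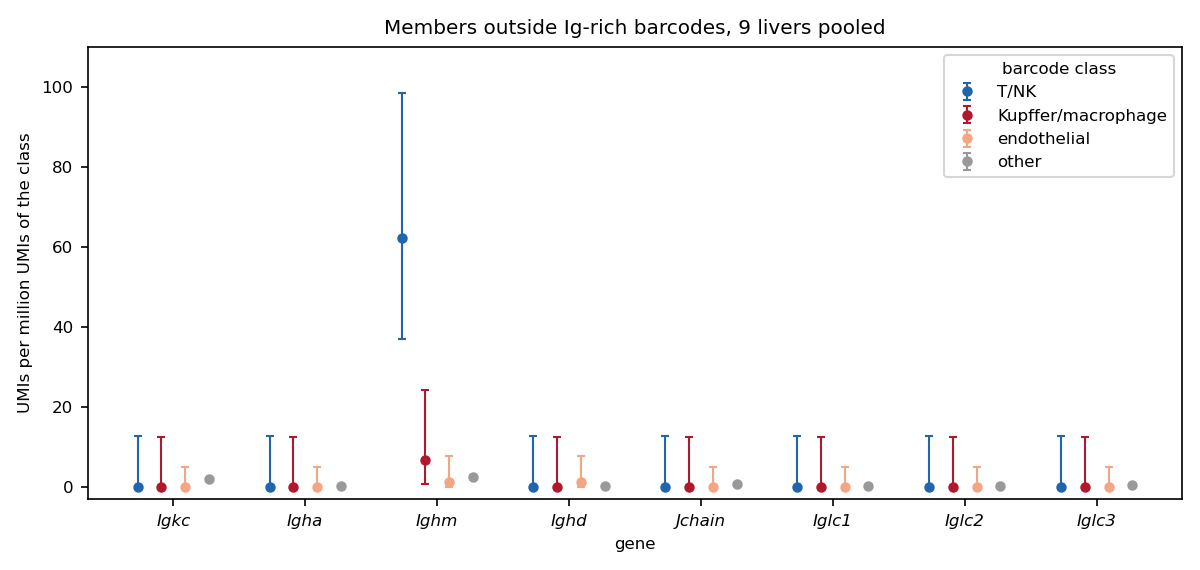
UMIs of each gene per 1000000 UMIs of the barcode class, 9 livers pooled, outside Ig-rich barcodes; bars are exact 95% Poisson intervals of the counts. Ighm in T/NK barcodes, at 62.3, is the only point with a lower bound above the upper bounds of the other classes shown for the same gene.

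By liver, Ighm in T/NK barcodes was at 36.8, 0 and 87.9 UMIs per 1000000 in AAVrh.10Null mice 2, 5 and 8, 32.7, 32.5 and 25.6 in AAVrh.10mCherry mice 3, 6 and 9, and 191, 68.6 and 0 in PBS mice 1, 4 and 7. In the other barcodes of the same livers it was at 2.72, 2.15 and 1.21 UMIs per 1000000 in the AAVrh.10Null livers, 2.42, 0.613 and 1.55 in the AAVrh.10mCherry livers, and 3.74, 4.15 and 9.33 in the PBS livers. The value was higher in the T/NK barcodes of 7 livers, of which AAVrh.10Null mouse 2 and all 3 AAVrh.10mCherry livers rest on 1 UMI each. T/NK barcodes held at most 102017 UMIs in a liver, so 1 Ighm UMI was enough to exceed the other barcodes. The 7 livers are thus those with any such UMI. The livers with 0, AAVrh.10Null mouse 5 and PBS mouse 7, had 6 and 8 T/NK barcodes, and their intervals reach 565 and 958. PBS mice 1 and 4 held 5 and 7 of the 18 UMIs and the other livers 0 to 2 each, and the groups were not compared.

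All 15 of these barcodes held UMIs of the T cell receptor complex (Cd3d, Cd3e, Cd3g, Trac, Trbc1 or Trbc2), as did 192 of the 212 T/NK barcodes, which were chosen in part by these genes. The 20 without them held 0 Ighm UMIs, which allows up to 153 per 1000000 by the exact 95% interval. A B cell list UMI was found in 1 of the 15 and Cd74 in none. As a share of barcodes, Ighm was found in 7.08% of T/NK barcodes (exact binomial interval 4.01% to 11.4%), against 0.897% of Kupffer cell, 0.167% of endothelial and 0.269% of other barcodes. Median depths were similar, at 1172 UMIs for T/NK, 1160 for Kupffer cell, 1013 for endothelial and 964 for other barcodes.

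Constant genes of the IgG and IgE classes were almost absent. Ighg1, Ighg3 and Ighe had 0 UMIs in all 9 livers. Ighg2b gave 6 UMIs in 5 barcodes of AAVrh.10mCherry mouse 6, 1 UMI in AAVrh.10mCherry mouse 3 and 2 UMIs in PBS mouse 4. Ighg2c gave 1 UMI, in AAVrh.10mCherry mouse 6. Class-switched antibody RNA other than Igha was thus seen in 3 livers, at 1 to 7 UMIs each.

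B and plasma cell genes other than the 8 were tested across the groups on UMIs summed per liver, where fewer cells of a type and less RNA per cell cannot be told apart. The edgeR quasi-likelihood test with Benjamini-Hochberg adjustment over 11288 genes called 1 gene for AAVrh.10Null minus PBS (0.00886% of the genes tested), 0 genes (0%) for AAVrh.10mCherry minus PBS and 0 genes (0%) for AAVrh.10mCherry minus AAVrh.10Null. At an unadjusted p under 0.05 there were 1908, 1095 and 741 genes, and DESeq2 called 211, 2 and 2. With 1 library per mouse, these p-values measure the spread between livers. Of the 8 genes, 5 passed the filter on low counts, and their fitted values are not given because the genes were chosen on these counts.

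None of the B cell list passed the test. Its summed level was 21.2, 9.92 and 14.4 CPM in AAVrh.10Null mice 2, 5 and 8, 9.61, 8.30 and 8.04 CPM in AAVrh.10mCherry mice 3, 6 and 9, and 6.33, 39.4 and 30.5 CPM in PBS mice 1, 4 and 7. The AAVrh.10mCherry livers lay close together, and the PBS livers lay on both sides of them. Only 5 of the 20 genes passed the filter on low counts (Cd37, Ly6d, Ms4a1, Cd79b and Bank1), and 0 of the 5 were called by edgeR in any contrast, with 0 of them at an unadjusted p under 0.05 for AAVrh.10Null minus PBS, 3 for AAVrh.10mCherry minus PBS and 1 for AAVrh.10mCherry minus AAVrh.10Null. Their median log2 fold change was -0.72 for AAVrh.10Null minus PBS, -2.22 for AAVrh.10mCherry minus PBS and -1.14 for AAVrh.10mCherry minus AAVrh.10Null, against -0.02, 0.00 and 0.00 over all genes tested. Without PBS mouse 4 the AAVrh.10mCherry minus PBS median was -0.29, and the AAVrh.10Null minus PBS median was -0.077 without PBS mouse 4 and -1.54 without PBS mouse 1.

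**Figure D5:**
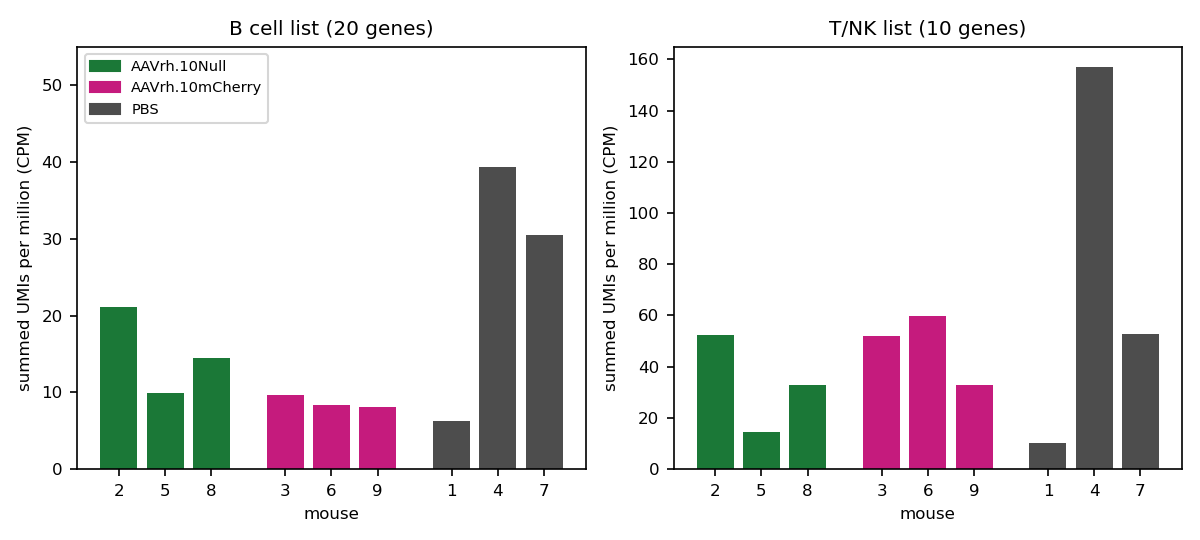
Summed level of the B cell list (left) and the T/NK list (right) in each liver, in CPM; each bar is 1 liver. PBS mouse 4 is highest in both, at 39.4 and 157 CPM.

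For AAVrh.10mCherry minus PBS, the smallest p-values of the list belonged to Cd37, a tetraspanin of B cells, with a log2 fold change of -2.38 (SE 0.71, edgeR adjusted p = 0.515), Ly6d, -2.29 (SE 0.91, adjusted p = 0.515), Ms4a1, -2.22 (SE 0.89, adjusted p = 0.515), and Cd79b, -1.52 (SE 0.75, adjusted p = 0.519). For AAVrh.10Null minus PBS the smallest was Cd37 at -1.47 (SE 0.68, edgeR adjusted p = 0.296). For AAVrh.10mCherry minus AAVrh.10Null it was Ms4a1 at -2.04 (SE 0.86, edgeR adjusted p = 0.751). Ms4a1 gave 24, 6 and 13 UMIs in AAVrh.10Null mice 2, 5 and 8, 1, 4 and 8 UMIs in AAVrh.10mCherry mice 3, 6 and 9, and 5, 31 and 2 UMIs in PBS mice 1, 4 and 7. None of these differences passed the threshold. For Ly6d, Ms4a1 and Cd79b the PBS livers overlapped both other groups. Cd37 was at 0.337, 0.988 and 1.05 CPM in AAVrh.10mCherry mice 3, 6 and 9. All of these lay below PBS mice 1, 4 and 7, at 1.16, 5.63 and 5.54 CPM. The nearest livers, mice 9 and 1, rested on 9 and 13 UMIs of Cd37. Of all genes tested, 2.29% lay wholly below for AAVrh.10mCherry against PBS. The T/NK list moved beside the B cell list in part: it summed to 52.6, 14.4 and 33.0 CPM in the AAVrh.10Null livers, 51.9, 59.7 and 33.0 CPM in the AAVrh.10mCherry livers, and 10.1, 157 and 52.6 CPM in PBS mice 1, 4 and 7. The part of lymphocyte content, and of the undetermined barcode bases of mice 2 and 8, in the B cell values was not tested.

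The plasma cell list had 9 of 18 genes tested and 0 called by edgeR in any contrast, with 0, 1 and 1 genes at an unadjusted p under 0.05 and medians of 0.10 for AAVrh.10Null minus PBS, -0.23 for AAVrh.10mCherry minus PBS and -0.24 for AAVrh.10mCherry minus AAVrh.10Null. The first was -0.054 without AAVrh.10Null mouse 5, -0.055 without PBS mouse 7 and 0.22 without PBS mouse 1. Hepatocytes are known to express some of its genes too, such as Xbp1 and Sdc1, and the list summed to 357 to 639 CPM in the livers. For AAVrh.10mCherry minus PBS the log2 fold changes were -1.18 (SE 0.51) for Derl3 and -0.50 (SE 0.29) for Edem2, both of protein degradation at the endoplasmic reticulum. They were -0.72 (SE 0.33) for Fkbp11, a folding enzyme of secretory cells, and 0.37 (SE 0.22) for Ell2, a transcription elongation factor. The edgeR adjusted p was 0.515 for Derl3 and Fkbp11, 0.542 for Edem2 and 0.549 for Ell2. The smallest p of the list in any contrast was that of Fkbp11 for AAVrh.10mCherry minus AAVrh.10Null, with a log2 fold change of -1.04 (SE 0.33, edgeR adjusted p = 0.722). Mzb1, too low to be tested, gave 3, 0 and 5 UMIs in AAVrh.10Null mice 2, 5 and 8, 1, 0 and 1 UMIs in AAVrh.10mCherry mice 3, 6 and 9, and 3, 5 and 13 UMIs in PBS mice 1, 4 and 7.

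Of 11 genes that bind or carry antibody, 8 to 11 were detected per liver; Fcamr, a receptor for IgA and IgM, had 1 UMI in all, in AAVrh.10Null mouse 8. Pigr was at 1637, 1098 and 1371 CPM in AAVrh.10Null mice 2, 5 and 8, 721, 1522 and 1106 CPM in AAVrh.10mCherry mice 3, 6 and 9, and 705, 1199 and 966 CPM in PBS mice 1, 4 and 7. All 3 groups overlapped for Pigr. Fcgrt, the neonatal Fc receptor that recycles IgG, was at 85.4, 84.8 and 74.2 CPM in the AAVrh.10Null livers, 70.0, 64.6 and 62.0 CPM in the AAVrh.10mCherry livers, and 81.3, 76.7 and 53.6 CPM in the PBS livers. Of this list of 11 genes 9 were tested and 0 called by edgeR, with 0, 1 and 0 at an unadjusted p under 0.05, the smallest p being that of B2m for AAVrh.10mCherry minus PBS (log2 fold change -0.68, SE 0.31, edgeR adjusted p = 0.515). The list's medians were -0.18 for AAVrh.10Null minus PBS, -0.49 for AAVrh.10mCherry minus PBS and -0.24 for AAVrh.10mCherry minus AAVrh.10Null. Without PBS mouse 4 the first was 0.50 and the second 0.39, and without PBS mouse 1 the first was -0.71.

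Survival and homing signals of the B lineage, such as Cxcl12 and Cxcl13, had 5 of 15 genes tested, 0 called by edgeR and 0 at an unadjusted p under 0.05 in any contrast. Their medians were 0.08 for AAVrh.10Null minus PBS, -0.16 for AAVrh.10mCherry minus PBS and -0.07 for AAVrh.10mCherry minus AAVrh.10Null. Without PBS mouse 4 the first was 0.49 and the second 0.51. Cxcl12, the chemokine that retains plasma cells in their niches, had the smallest p in the contrasts with PBS, with log2 fold changes of 0.32 (SE 0.28, edgeR adjusted p = 0.552) for AAVrh.10Null and 0.34 (SE 0.28, edgeR adjusted p = 0.627) for AAVrh.10mCherry.

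Of 36 variable segments 1 was tested, Igkv3-12 of the kappa locus. It was the gene called for AAVrh.10Null minus PBS (edgeR adjusted p = 0.0419, n = 3 livers per group). Igkv3-12 could pass the filter on low counts only through the AAVrh.10Null livers, and earlier results of these data were known. The call therefore restates its counts and is no independent support. It gave 704, 1048 and 1561 UMIs in AAVrh.10Null mice 2, 5 and 8, 0, 15 and 0 UMIs in AAVrh.10mCherry mice 3, 6 and 9, and 0 UMIs in each PBS liver. Few of these UMIs were in Ig-rich barcodes: in the AAVrh.10Null livers they lay in 664, 914 and 1321 barcodes, and 0, 1 and 2 of the UMIs were in Ig-rich ones. For AAVrh.10mCherry minus AAVrh.10Null its edgeR adjusted p was 0.0565. No gene was called for AAVrh.10Null minus PBS when mouse 1, 2, 3, 4, 7 or 8 was left out, and 24 were called without mouse 5.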

How the data were processed

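For each of 9 livers the authors deposited a table of unscaled UMI counts, with genes in rows and cell barcodes in columns. Per the labels' protocols, Drop-seq libraries were read with 101 cycles on a HiSeq 2500, and the submitters' processing notes name the mouse build mm10 and Seurat. Aligner, counter, strand setting and barcode threshold are not given in the sources used here. Livers were grouped by the treatment in the labels. The 8 genes, the gene lists and the thresholds were chosen with earlier results of these data known.

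All barcodes were used, including those under 200 genes. Levels are UMIs per 1000000 UMIs of a liver, with exact 95% Poisson intervals and a floor of 3 UMIs for 0, which cover counting error only. Floors were 0.267 to 2.77 CPM. Barcodes were called Ig-rich at 5 UMIs, and T/NK, Kupffer and endothelial barcodes at 3 UMIs of their lists. No doublet caller was run. UMIs were summed per liver and tested with edgeR 4.0.16 in R 4.3.3 (TMM, filterByExpr, quasi-likelihood, all 9 livers in 1 fit). Group was the only term and the threshold was an adjusted p under 0.05. The procedure was tested on simulated data, with a smaller spread than was estimated here. Only genes with higher counts than those of the B cell list were altered there, so it cannot tell what the test detects for that list. DESeq2 1.42.0 was an alternative. Named genes were, by rule, all 8 genes, called genes of a list, otherwise up to 4 with the smallest p, and the leading genes of Ig-rich barcodes. Sums and sequences were handled with Python 3.11.15, numpy 2.4.6, scipy 1.17.1, pandas 2.3.3, biopython 1.88 and matplotlib 3.10.9. Sequences and positions are those of GENCODE M21 on GRCm38, the assembly also called mm10.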

Additional observations from a re-analysis of the deposited data

How the results depend on the processing

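No paired analysis was run, because the labels number the mice 1 to 9 through all groups and name no pairs. Depth limits most values: 1 UMI of a liver is worth 0.0891 to 0.923 CPM, and most genes of the B lineage failed the filter on low counts. Alternatives were planned except those without mice 2 and 8 and without the Igha barcode of mouse 7, chosen after seeing the data; leaving out that barcode moved no count of calls and no list median by over 1.5 times.

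For AAVrh.10Null against PBS, for AAVrh.10mCherry against PBS and for AAVrh.10mCherry against AAVrh.10Null, the genes called numbered 565, 155 and 132 with no filter on low counts, and 211, 2 and 2 with DESeq2. Retained barcodes (200 genes or more, mitochondrial UMIs 50% or less) gave 3 for the last. Leaving out 1 mouse gave 0 to 24, 0 and 0 to 2. List medians with 1 mouse left out ran, in the same order of contrasts, from -1.54 to -0.077, -2.52 to -0.29 and -1.30 to -0.51 for the B cell list. For the plasma cell list they ran from -0.055 to 0.22, -0.40 to -0.093 and -0.53 to -0.12. For antibody receptors they ran from -0.71 to 0.50, -0.86 to 0.39 and -0.43 to -0.11, and for B lineage survival and homing from -0.23 to 0.49, -0.42 to 0.51 and -0.23 to -0.068. For variable segments they ran from 10.7 to 13.2, 0 to 5.28 and -10.8 to -7.78, with 1 or 2 segments tested in each fit. With no filter the variable segment medians were 0, -0.13 and 0, as more segments near 0 entered, and without mice 2 and 8 the second was 2.62, with 2 segments tested. The other causes were not tested.

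Barcode counts depend on the minimum. With at least 3 UMIs, Ig-rich barcodes were 18, 6 and 16 (AAVrh.10Null mice 2, 5 and 8), 5, 4 and 7 (AAVrh.10mCherry mice 3, 6 and 9) and 9, 27 and 8 (PBS mice 1, 4 and 7). With at least 10 they were 5, 1 and 3, 4, 3 and 0, and 6, 11 and 1 in the same order. Barcodes with at least 1 UMI of Ighm or Ighd were 26, 10 and 26, 22, 8 and 19, and 54, 47 and 12. With at least 3 they were 6, 3 and 7, 4, 3 and 1, and 5, 11 and 0. With at least 1 UMI of Igha or Jchain they were 3, 3 and 7, 2, 4 and 11, and 3, 12 and 4. At the main minimums (5 UMIs of the 8 genes, 2 of a pair), counting barcodes with the same first 11 bases once changed no count.

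Of 72 levels of the 8 genes per liver, 38 left their interval without Ig-rich barcodes, 5 with retained barcodes, all in mouse 7 (Igkc 382, Igha 213, Jchain 68.8, Iglc2 55.1 and Iglc1 6.88 CPM), and 0 without mitochondrially encoded genes in the total.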

Other observations

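A variable segment other than Igkv3-12, picked after its values were seen and not tested in the main fit, was counted in AAVrh.10Null livers only. Ighv9-3 of the heavy chain locus gave 5, 53 and 47 UMIs in AAVrh.10Null mice 2, 5 and 8, in 5, 52 and 47 barcodes, and 0 UMIs in every AAVrh.10mCherry and PBS liver. None of its UMIs was in an Ig-rich barcode. In the same livers Igkv3-12 was at 124, 248 and 232 CPM and Ighv9-3 at 0.882, 12.5 and 6.98 CPM.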
